A study of Mus musculus with 4 samples.

Results

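Bone morphogenetic protein (BMP) ligands, receptors and antagonists were examined in an ATAC-seq data set of LβT2 cells (LbT2b in the sample titles), an established mouse line that resembles the pituitary gonadotrope, the source of luteinizing and follicle-stimulating hormone. The 10 genes were the ligands Bmp2, Bmp4, Bmp6 and Bmp7, the receptors Bmpr1a, Bmpr1b and Bmpr2, and the antagonists Nog, Chrd and Grem1. Their peaks were those that the authors' annotation assigned to one of these names, 120 in the 4 peak lists, and they merged into 64 of the 255101 regions of the series. The cells were kept in serum-free medium overnight and then received vehicle or 1 nM activin A for 6 h, with 2 libraries per treatment. In ATAC-seq a transposase inserts adapters into open DNA, so a peak marks accessible chromatin and not transcription.

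BMP ligands are secreted dimers of the TGFβ family, to which activin also belongs. They bring together type I receptors such as Bmpr1a and Bmpr1b with a type II receptor such as Bmpr2, and these kinases phosphorylate Smad proteins that then act on target genes. Nog, Chrd and Grem1 encode secreted proteins that bind the ligands and keep them from the receptors. In gonadotrope cells BMPs are known to act beside activin on Fshb, which encodes the β subunit of follicle-stimulating hormone.

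High-quality autosomal reads numbered 172146474 to 224226184 per library, and the lists had 70692 to 178358 peaks. Vehicle library 2 stood apart with 178358 peaks, against 83344 in vehicle library 1 and 85112 and 70692 in the activin libraries. Enrichment of reads at start sites was 2.72 and 2.48 under vehicle and 3.12 and 3.04 under activin. Of 11 gonadotrope genes, 10 had a promoter peak in every library (Fshb had none), whereas the defining genes of other pituitary cells, fibroblasts, endothelium and leukocytes had one at 1 of 25 (Sox9, a stem cell gene) and in some libraries at 9. The labels do not say whether libraries came from separate cultures, so p-values measure the spread between these libraries, which may be technical.

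Start sites carried a peak in at least 1 library at 8 of the 10 genes, and the share over all genes was not computed. The receptors Bmpr1a and Bmpr2 and the ligand Bmp7 carried the strongest peaks, and Bmp4 and Bmpr1b none. At Bmpr2 the peak was named for a neighbour, Gm38125, and was added after its values were seen. The counts that follow went by name and left it out. The strength of a peak is given as the −log10 of its q-value in the authors' list, where the lowest value listed was 1.00 in each library. A peak annotated as promoter was present in all 4 libraries at Bmp6, Bmp7 and Bmpr1a, which is 3 of 10 genes, against 30% of the 18844 protein-coding genes named in the lists. Bmp2 and Chrd also had one with its centre at most 1 kb from the start in every library, which made 5 of 10 genes, against 37%. The number of the 10 genes with a promoter peak of their name was 4 and 3 under vehicle and 3 and 4 under activin. The difference between the means was 0. This count also left out the peak in the Nog promoter in activin library 1, which was named for Gm2018.

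**Figure D1:**
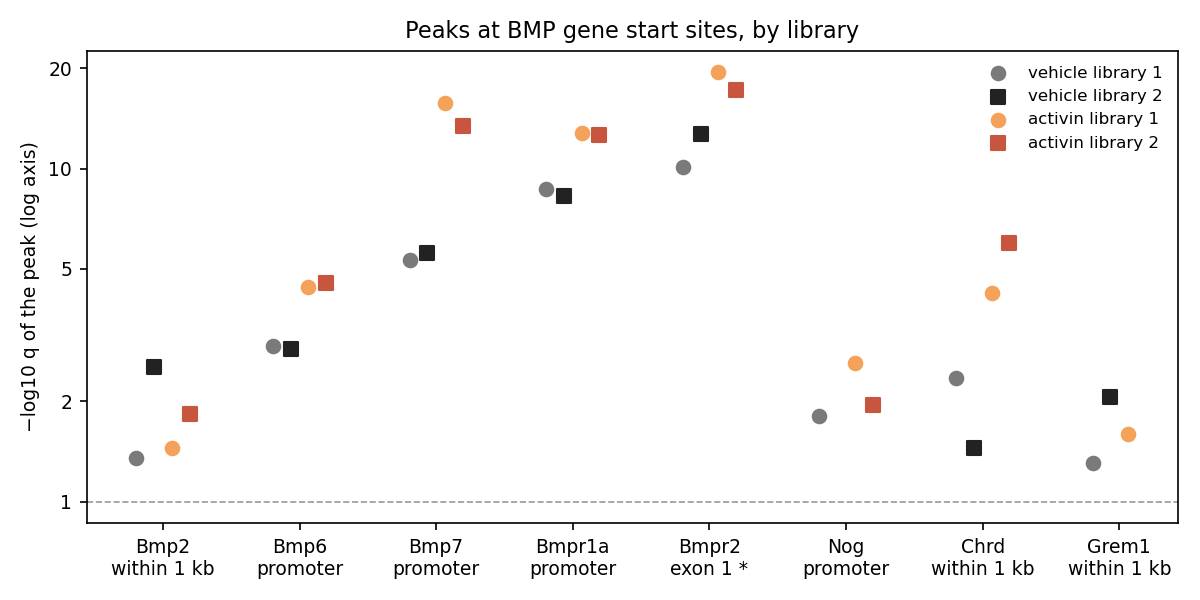
Peak strength at the start sites of 8 BMP genes, as −log10 q of the peak in each of the 4 libraries on a log axis; the dashed line marks a value of 1 and the asterisk marks the Bmpr2 region that the annotation names for Gm38125. Bmp7, Bmpr1a and Bmpr2 had the strongest peaks, without overlap between treatments and with activin higher, and Bmp4 and Bmpr1b had none to plot. The same order held at Bmp6 and Chrd, and at 73.1% of all promoter-annotated regions with a peak in every library.

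The 250 bases before the annotated RefSeq start (build GRCm38.p6, 5′ to 3′ along the gene) are shown for 3 genes whose start carried a peak in every library, for Grem1, and for Bmp4, where no library had one. Capitals mark the Smad motif CAGAC or the GC-rich Smad motif GGCGCC on either strand. The windows are chr14:34502547-34502796 (reverse strand) for Bmpr1a, chr1:59764029-59764278 (forward) for Bmpr2, chr16:20732877-20733126 (forward) for Chrd, chr2:113758649-113758898 (reverse) for Grem1 and chr14:46390670-46390919 (reverse) for Bmp4.
Bmpr1a: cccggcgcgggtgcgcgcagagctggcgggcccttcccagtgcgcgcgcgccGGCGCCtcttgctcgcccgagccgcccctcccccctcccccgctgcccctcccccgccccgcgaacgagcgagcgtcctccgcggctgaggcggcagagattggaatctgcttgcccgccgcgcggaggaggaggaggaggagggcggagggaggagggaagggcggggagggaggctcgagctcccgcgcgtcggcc
Bmpr2: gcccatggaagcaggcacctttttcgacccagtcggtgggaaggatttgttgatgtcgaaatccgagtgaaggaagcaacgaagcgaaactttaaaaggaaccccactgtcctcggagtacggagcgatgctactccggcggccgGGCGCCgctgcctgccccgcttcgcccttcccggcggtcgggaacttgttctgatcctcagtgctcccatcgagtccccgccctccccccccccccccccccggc
Chrd: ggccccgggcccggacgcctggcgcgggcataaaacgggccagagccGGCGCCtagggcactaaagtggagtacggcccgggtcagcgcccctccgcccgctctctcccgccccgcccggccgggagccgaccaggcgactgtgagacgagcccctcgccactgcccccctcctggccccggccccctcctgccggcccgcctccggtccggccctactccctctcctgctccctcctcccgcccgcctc
Grem1: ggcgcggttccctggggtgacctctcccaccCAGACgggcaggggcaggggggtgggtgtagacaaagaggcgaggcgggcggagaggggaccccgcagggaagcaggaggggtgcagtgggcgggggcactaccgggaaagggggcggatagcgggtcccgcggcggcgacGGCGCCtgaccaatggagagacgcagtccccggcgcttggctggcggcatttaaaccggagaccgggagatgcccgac
Bmp4: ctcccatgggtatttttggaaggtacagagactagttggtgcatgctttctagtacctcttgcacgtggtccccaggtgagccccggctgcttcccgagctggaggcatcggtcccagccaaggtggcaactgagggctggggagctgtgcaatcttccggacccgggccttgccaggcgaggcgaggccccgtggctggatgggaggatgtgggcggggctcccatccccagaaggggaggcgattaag

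The RefSeq table had an upstream window for 7 of the 10 genes (3 for Bmpr1b), searched on both strands. Motif counts here are of genes with a match in any of their windows, whereas the shares beside them are of single windows. GGCGCC was present at 4 of the 7 genes (Bmpr1a, Bmpr2, Chrd and Grem1), against 9.59% of 32851 windows of the same length in the table. These windows were also rich in G and C, with 78.8% at Bmpr1a, 64.0% at Bmpr2, 78.0% at Chrd and 72.0% at Grem1, where the median window had 52.4%. CAGAC was found in 3 of the 7, against 42.2% of all windows, and lay at Grem1, Bmp6 and Bmpr1b. The AP-1 motif TGANTCA was in 0 of the 7, against 6.75%, and the GC box GGGCGG was in 6, against 32.7%. Peaks of all 4 libraries overlapped the windows of Bmpr1a, Bmpr2 and Chrd, peaks of 2 libraries that of Grem1, and none those of Bmp4 and Bmpr1b. The window of Bmp6, which held no GGCGCC, was overlapped by a peak of 1 library only. Its promoter-annotated peak was called in all 4 libraries, but in the others it ended upstream of the window. A match is a description of the letters and does not show a bound site.

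Among the ligands, Bmp7 had the strongest start site. Bmp7 (ENSMUSG00000008999) belongs to the same branch of the family as Bmp6 and is known for its part in kidney development. Its promoter region (chr2:172939624-172940737) had a −log10 q of 5.30 and 5.57 under vehicle and 15.7 and 13.4 under activin, and the authors' fold enrichment was 2.41 and 2.36 against 3.29 and 3.39. Both values were higher in both activin libraries. The read density, in high-quality reads per kb of peak for every 1000000 such reads in the library, was 3.26 and 3.20 under vehicle and 4.20 and 4.23 under activin (3.23 ± 0.0423 and 4.21 ± 0.0234, SD, n = 2). Densities on this scale were higher under activin in general, by 0.27 (log2) at the median region shared by all libraries, and changes are therefore given relative to each library's median. Relative to that median the difference at the Bmp7 promoter, activin minus vehicle, was 0.11 ± 0.10 on the log2 scale (SE; limma adjusted p = 0.750), and it was −0.17 without division by peak length.

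The promoter region of Bmp6 (chr13:38344965-38345870) was weaker. Bmp6 (ENSMUSG00000039004) is a ligand known for its part in iron balance. Its −log10 q was 2.93 and 2.87 under vehicle and 4.40 and 4.54 under activin, without overlap between the treatments. Its density was 2.78 and 2.14 under vehicle and 1.40 and 2.52 under activin, and here the treatments overlapped. The called intervals shared 18.8% of their union, with lengths of 186 and 190 bp against 906 and 272 bp, so the densities are not of the same DNA. In a fit over all 28977 autosomal regions with a peak in every library, the change was −0.55 ± 0.29 on the log2 scale (SE; limma adjusted p = 0.557).

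Bmp6 had the most regions of the 10 genes, 15 from 59.5 kb upstream to 64.8 kb downstream of the start, of which 10 were called in 1 library only. In intron 1, 64.8 kb downstream (chr13:38409833-38411265), the −log10 q was 3.88 and 5.88 under vehicle and 12.3 and 8.31 under activin. The density there was 1.48 and 1.14 under vehicle and 1.78 and 1.61 under activin, above both vehicle libraries in both activin libraries, over intervals that shared 39.8% of their union. In the same fit its change was 0.21 ± 0.20 on the log2 scale (SE; limma adjusted p = 0.746). The intergenic region 7.3 kb upstream (chr13:38338178-38338623) went the other way, with a −log10 q of 5.19 and 5.37 under vehicle and 4.13 and 2.69 under activin. It held 62 and 86 high-quality reads under vehicle and 48 and 60 under activin, densities of 0.928 and 0.884 against 0.538 and 0.777. Both activin libraries lay below both vehicle libraries.

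**Figure D2:**
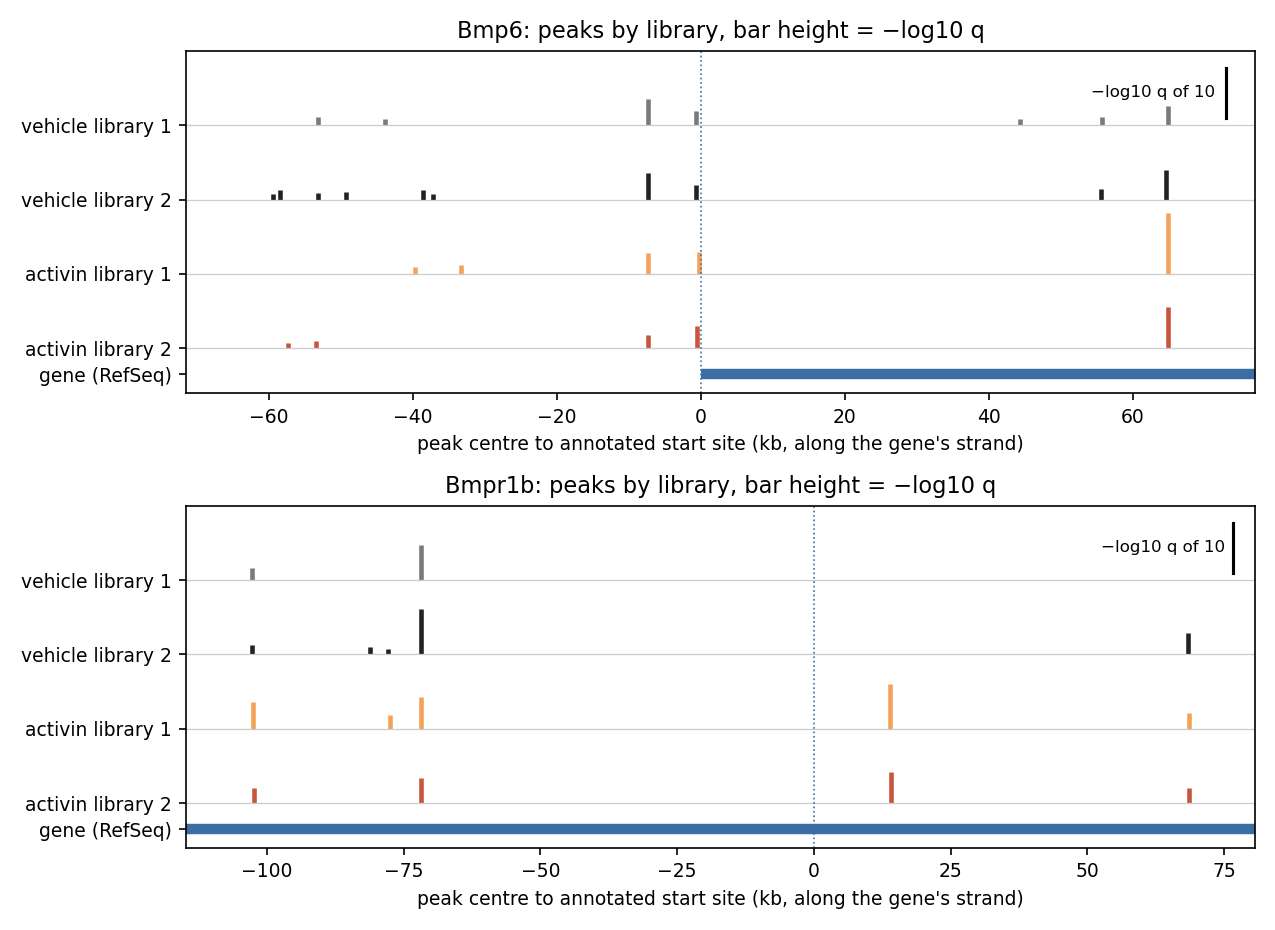
Peaks named for Bmp6 (top) and Bmpr1b (bottom) in each library, by distance of the peak centre from the annotated start site in kb along the gene's strand; bar height is the −log10 q, with a scale bar of 10, and the blue bar is the RefSeq gene. At Bmp6 the intron peak at 64.8 kb was taller and the peak at −7.3 kb shorter in both activin libraries, and at Bmpr1b the peak at 14.0 kb was called under activin only.

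The change at the upstream Bmp6 region was −0.75 ± 0.27 on the log2 scale (SE; limma adjusted p = 0.470), which did not pass the threshold. The change was −0.45 without activin library 1 and −1.05 without activin library 2. Its mean centred log2 density was −1.84. When shared regions were grouped by density, the 347 in its group (mean density −2.57) had a median change of −0.45. The next denser group (mean density −1.37) had a median change of −0.077, so the change at like density is not fixed closely. The remaining regions named for Bmp6 were weak. Of these the 2 strongest were in intron 1 at 55.5 kb (1.55 and 2.05 under vehicle, no peak under activin) and 58.5 kb upstream (2.02 in vehicle library 2 alone).

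Bmp2 (ENSMUSG00000027358) and Bmp4 (ENSMUSG00000021835), a closely related pair of ligands, had little accessible chromatin by this measure. Bmp2 had a weak region in exon 1 in every library (chr2:133552171-133553225), with a −log10 q of 1.35 and 2.54 under vehicle and 1.45 and 1.83 under activin, and the treatments overlapped. The 4 intervals had no common part there. Of its other 8 regions, the strongest were 27.4 kb upstream (1.35 and 1.96 under vehicle only) and 9.7 kb upstream (1.94 in vehicle library 2 only). Bmp4 had 1 peak in the 4 lists, 7.7 kb upstream in vehicle library 2, with a −log10 q of 1.69. No library had a peak at the Bmp4 start, whose upstream sequence is printed above.

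Outside its promoter, Bmp7 had 6 regions of its name with a −log10 q of at most 1.75. The strongest were 15.8 kb downstream (1.75 and 1.24 under vehicle, no peak under activin) and 10.0 kb upstream (1.52 in vehicle library 2). A stronger region in the last intron of Bmp7 was named for Gm22773 and is described below.

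Of the receptors, Bmpr1a had a strong promoter in every library and no region of its name that a library lacked. Bmpr1a (ENSMUSG00000021796) encodes a type I receptor that binds ligands such as Bmp2 and Bmp4. The promoter region (chr14:34502016-34503386) had a −log10 q of 8.68 and 8.28 under vehicle and 12.8 and 12.7 under activin. Its density was 2.23 and 2.00 under vehicle and 2.72 and 2.53 under activin (2.12 ± 0.167 and 2.63 ± 0.132, SD, n = 2). Once centred, the log2 densities were −0.26 and −0.25 under vehicle and −0.20 and −0.23 under activin, so the treatments did not overlap but differed by 0.04 ± 0.12 (SE; limma adjusted p = 0.939). This difference was −0.16 without division by length and −0.035 among regions with a common part of at least 75%.

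A second Bmpr1a region lay 6.4 kb upstream in intergenic DNA (chr14:34507933-34509913). Its −log10 q was 4.70 and 4.60 under vehicle and 7.25 and 6.66 under activin, again without overlap. The density was 1.75 and 1.26 against 1.77 and 1.72, a change of 0.07 ± 0.20 in the fit over the 28977 regions (SE; limma adjusted p = 0.932). The promoters whose centred densities were nearest to those of the Bmpr1a promoter over the 4 libraries, of 6977 compared, were those of 5830454E08Rik, Gm28039 and Dlx2, with root mean square differences of 0.0205, 0.0229 and 0.0266 on the log2 scale.

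Bmpr2 (ENSMUSG00000067336), the type II receptor, had 3 peaks by name, all in intron 3 of 12 and with a −log10 q of at most 1.71. They lay 23.8 kb upstream of the annotated start (1.71 in vehicle library 2 and 1.38 in activin library 2) and 9.7 kb upstream (1.08 in vehicle library 2). A peak is named for the gene to whose start site its distance is given, and the start used for Bmpr2 lay inside the RefSeq gene, which begins at position 59764279 of chromosome 1. Exon 1 of Bmpr2 was under a strong peak in every library (chr1:59762772-59764890) that carried the name of a neighbour, Gm38125. This region was added after its values were seen.

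At Bmpr2 exon 1 the −log10 q was 10.1 and 12.7 under vehicle and 19.5 and 17.2 under activin, the highest of any start site of the 10 genes in each library. The density was 2.59 and 2.42 under vehicle and 3.14 and 3.28 under activin (2.51 ± 0.119 and 3.21 ± 0.0929, SD, n = 2). Relative to each library's median the change was 0.08 ± 0.11 on the log2 scale (SE; limma adjusted p = 0.835), and it was −0.079 without division by length.

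Bmpr1b (ENSMUSG00000052430), a type I receptor known for its part in ovary and skeleton, had no peak at a start site and 6 regions of its name inside the gene. One of them was called under activin only. It lay in intron 1, 14.0 kb downstream of the annotated start (chr3:141917163-141917772), with a −log10 q of 9.04 and 6.36 and an authors' fold enrichment of 4.25 and 3.94 in the activin libraries. It held 173 and 157 high-quality reads there, densities of 1.58 and 1.45 (1.52 ± 0.0975, SD, n = 2), and since neither vehicle library had a peak in it, no read number was given for vehicle and no fold or test was possible. By the lower −log10 q of the pair it was number 9 of 3454 such regions, of which 25 (0.724%) reached 5 in both libraries.

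The region 71.8 kb upstream of the annotated start, also annotated as intron 1 (chr3:142003096-142003586), had a −log10 q of 7.01 and 9.23 under vehicle and 6.51 and 5.005 under activin. It held only 14 and 20 high-quality reads under vehicle and 12 and 12 under activin, densities of 0.201 and 0.204 against 0.133 and 0.139. Such peaks, with a density under 0.25, made up 9 of the 120 peaks (7.5%), at Bmpr1b and Grem1, and 6.67% to 9.35% of the lists. Both activin libraries lay below both vehicle libraries, with a change of −0.81 ± 0.42 on the log2 scale (SE; limma adjusted p = 0.564), where shared regions of like density had a median of −0.58.

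A further Bmpr1b region, 102.5 kb upstream (chr3:142033284-142034736), had a −log10 q of 2.34 and 1.95 under vehicle and 5.31 and 3.16 under activin. The called intervals were 304 and 386 bp under vehicle and 1453 and 1256 bp under activin, and the density went the other way, 1.26 and 1.21 against 1.03 and 0.989 (−0.47 ± 0.24 on the log2 scale in the fit over the 28977 regions, SE; limma adjusted p = 0.551). Another, 68.6 kb downstream (chr3:141862733-141863099), was called in vehicle library 2 (4.39) and in both activin libraries (3.28 and 3.04).

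**Figure D3:**
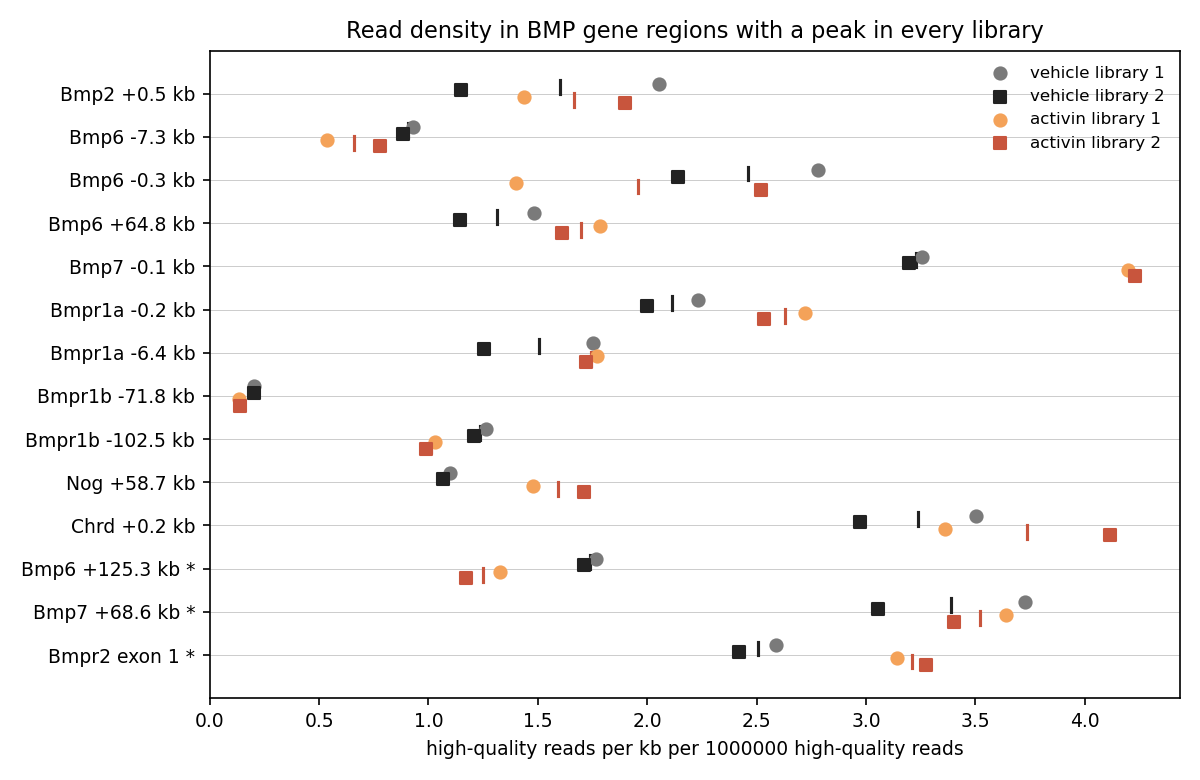
Read density in the 11 BMP regions with a peak in every library, and in 3 regions inside BMP genes that the annotation names for another gene (asterisks), in high-quality reads per kb of peak per 1000000 reads; points are libraries and vertical bars group means. Densities are not centred, and the treatments lie apart at, among others, the Bmp7, Bmpr1a and Bmpr2 start sites (activin higher) and at the Bmp6 −7.3 kb region (vehicle higher).

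Among the antagonists, Chrd had its single region at the start site and Nog and Grem1 had weak start sites. Chrd (ENSMUSG00000006958) encodes chordin, which tolloid proteases cleave to release the bound ligand. Its region (chr16:20732947-20733679, exon 1 and intron 1) had a −log10 q of 2.36 and 1.45 under vehicle and 4.25 and 5.99 under activin. The density was among the highest of the 10 genes, 3.50 and 2.97 under vehicle and 3.36 and 4.12 under activin, and the treatments overlapped. The change was −0.07 ± 0.13 on the log2 scale (SE; limma adjusted p = 0.892), with the opposite sign without division by length (0.048), scaled to all high-quality reads (0.20), over all merged regions (0.037) and without activin library 1 (0.11).

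Nog (ENSMUSG00000048616) encodes noggin, a high-affinity antagonist of Bmp2 and Bmp4. Its promoter region (chr11:89302009-89302981) was called in 3 libraries, with a −log10 q of 1.81 in vehicle library 1 and 2.60 and 1.95 under activin, and the peak of activin library 1 was named for Gm2018. The densities were 1.45, 1.40 and 1.82 in the same order. An intergenic region 58.7 kb downstream (chr11:89243222-89244134) was called in every library, at 1.61 and 2.03 under vehicle and 1.57 and 1.11 under activin. Its density went the other way, 1.10 and 1.07 against 1.48 and 1.71, over intervals with no common part (0.39 ± 0.22 on the log2 scale in the fit over the 28977 regions, SE; limma adjusted p = 0.581). The other 7 Nog regions were each called in 1 library, 6 of them in vehicle library 2, and the strongest were at 36.8 kb (2.22) and 56.9 kb (2.12).

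Grem1 had 12 regions and none in every library. Grem1 (ENSMUSG00000074934) encodes gremlin, an antagonist known from the limb bud. A region covering its start and intron 1 (chr2:113757380-113758814) was called in 3 libraries at 1.31 and 2.06 under vehicle and 1.60 in activin library 1. The region in exon 2 (chr2:113749196-113749926) was likewise missing from activin library 2, with 1.54 and 3.40 against 1.47. A region 15.1 kb downstream (chr2:113743257-113743860) was called in both vehicle libraries only, at 2.00 and 3.56, with 114 and 158 high-quality reads. The region 23.4 kb downstream (chr2:113734986-113735529) reached 3.77 and 1.66 under vehicle and 1.63 in activin library 2 but held only 4, 4 and 2 high-quality reads.

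Over all 10 genes, the peaks made up a like share of each list. There were 26 and 50 peaks under vehicle and 25 and 19 under activin, a difference of −16 between the means (exact permutation p = 0.3333, 2-sided, the smallest that 2 against 2 libraries allow). That share was 0.0312% and 0.0280% under vehicle and 0.0294% and 0.0269% under activin. Without vehicle library 2 the difference was −4, and it was 2.5 when the −log10 q had to reach 5, with 4 and 5 peaks against 7 and 7. All autosomal peaks that reach 5 were also more numerous under activin, 19180 and 15302 against 11986 and 12368.

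Of the 64 regions, 36 (56.3%) were called in 1 library, against 67.4% of all regions. Of these, 24 were in vehicle library 2, whose list had 178358 peaks, against 70692 to 85112 in the other libraries. The share of that library among all regions called in 1 library was not computed. A peak in every library was found in 11 (17.2%), against 11.7% of all regions. Regions called in both vehicle libraries and neither activin library numbered 6 of 64 (9.38%), against 4.86% of all regions, and 3 with equal numbers of peaks per library or 0 when the −log10 q had to reach 2. The 1 activin-only region, at Bmpr1b, stood against 1.35%, and the 4 pairs that mix the treatments had 0, 0, 2 and 2, against 0.943%, 0.552%, 4.26% and 2.70% of all regions.

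Among the 11 regions with a peak in every library, the −log10 q was higher in both activin libraries in 7, against 56.8% of 29896 such regions. These were the promoters of Bmp6, Bmp7 and Bmpr1a, the Chrd start, and the regions at Bmp6 (64.8 kb), Bmpr1a (−6.4 kb) and Bmpr1b (−102.5 kb). It was higher in both vehicle libraries in 3, against 5.44%, namely Bmp6 (−7.3 kb), Bmpr1b (−71.8 kb) and Nog (58.7 kb), all distal. At Nog the nearest values were 1.61 under vehicle and 1.57 under activin, and its density went the other way. The Bmpr1b region held only 12 to 20 high-quality reads per library. The background differed by position, since the activin pair was higher at 73.1% of promoter-annotated regions and 48.4% of the others, and the vehicle pair at 1.04% and 7.67%. Start-site enrichment was also higher in both activin libraries (3.12 and 3.04 against 2.72 and 2.48), and its part in this order was not tested.

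The density test covered shared regions, which had exactly 1 peak of each library and a common part of at least 50% of their union. Of 13871 shared regions, 5 belonged to the 10 genes, and 0 of them passed an adjusted p of 0.05 in limma, against 0% of all. At an unadjusted p under 0.05 there was 1 (Bmp6, −7.3 kb, lower under activin), against 3.62% of shared regions higher and 5.91% lower. After centring, the activin pair was above the vehicle pair in 1 (Bmpr1a), against 20.9%, and below it in 2 (Bmp6 and Bmpr1b), against 20.5%. The median change of the 5 was −0.07 on the log2 scale, with a range of −0.81 to 0.11, and that of all shared regions was −0.00. The number called depended on the scaling. Scaled to all high-quality reads instead of each library's median, 605 shared regions passed in limma, 553 higher and 52 lower under activin. The 5 were not among them.

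**Figure D4:**
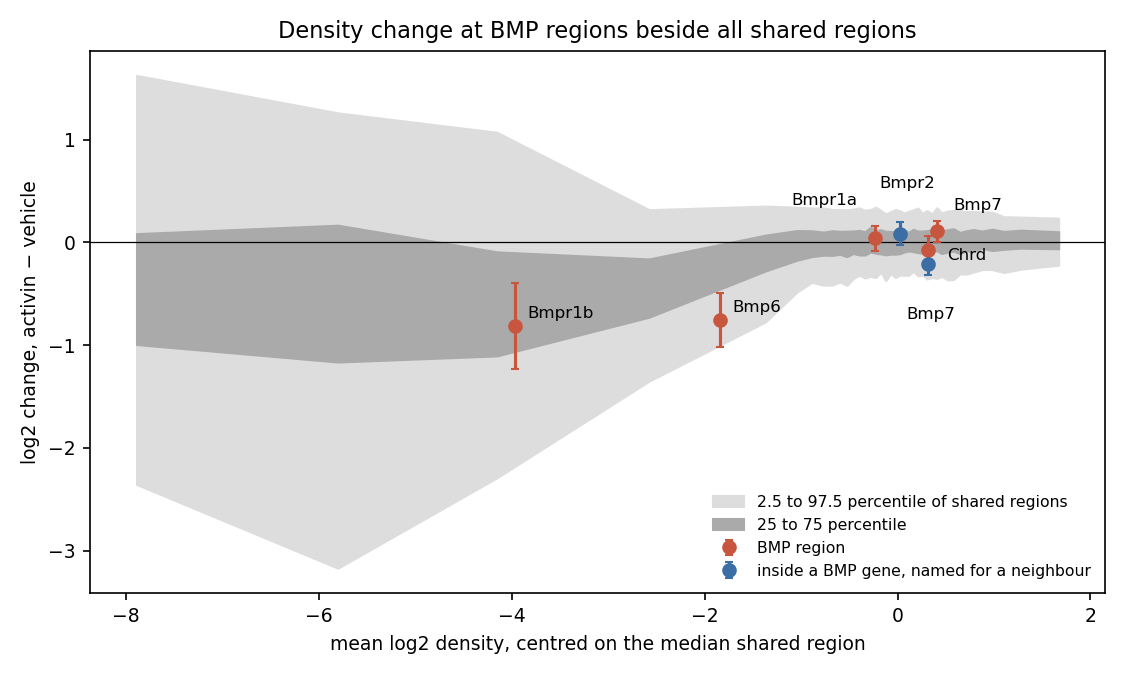
Change in read density (activin minus vehicle, log2) against mean density, centred on the median shared region, for 5 shared BMP regions (red) and 2 regions inside BMP genes named for a neighbour (blue); bars are SE and grey bands hold the middle parts of all 13871 shared regions. The start sites of Bmp7, Bmpr1a, Bmpr2 and Chrd lie near 0, and the regions of low density at Bmp6 (−0.75) and Bmpr1b (−0.81) lie below it.

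Beyond the peaks that carried their names, 7 of the 10 genes contained peaks named for another gene, 30 in all, in 19 regions. Besides exon 1 of Bmpr2, 2 were called in every library, and they too were chosen after their values were seen. The last intron of Bmp7 (chr2:172871116-172871908, named for Gm22773) had a −log10 q of 6.82 and 4.20 under vehicle and 9.59 and 7.45 under activin, and a density change of −0.21 ± 0.10 on the log2 scale (SE; limma adjusted p = 0.535), with the opposite sign scaled to all high-quality reads (0.060) and a value of 0.0015 without division by length. Intron 2 of Bmp6 (chr13:38470595-38471522, named for Txndc5) had 4.93 and 3.21 against 5.00 and 2.69, which overlap, while its density was lower in both activin libraries, 1.77 and 1.71 against 1.33 and 1.17. Its intervals shared 15.5% of their union, and the difference was −0.65 ± 0.20 on the log2 scale in the fit over the 28977 regions (SE; limma adjusted p = 0.521). The other 16 regions stayed under a −log10 q of 3 in every library.

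The rest of the BMP pathway was described with a list of 56 genes. A promoter peak was present in every library at 18 of them, in some libraries at 15 and in none at 23. The share with one in every library over all 18844 protein-coding genes named in the lists was 30%. That share counted only peaks of the gene's own name, whereas the list also counted promoter peaks annotated to the gene but named for another. Both counted a promoter peak of the gene's name even where the annotated promoter was that of another gene. At Gdf5, for example, such a peak was counted in 4 libraries, but 0 libraries had a peak of that name centred within 1 kb of its start. No peak carried the name of Bmp5, Bmp8b, Bmp15 or Fst, and peaks inside them named for a neighbour were not searched for. By role, promoters were called in every library at 3 of 12 other ligands (Bmp8a, Gdf5 and Gdf9), 1 of 9 other receptors (Acvr2b), 7 of 18 other antagonists or modulators, 4 of 8 Smads and their regulators (Smad5, Smad6, Smad7 and Smurf2) and 3 of 9 targets (Id2, Id3 and Hey1). Their genes held 40 shared regions, of which 0 passed an adjusted p of 0.05 in limma, and at an unadjusted p under 0.05 there were 4 with a positive and 2 with a negative change, against 3.62% and 5.91% of all shared regions.

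There were 15 shared regions counted as their start sites, that named for Gdf5 among them. Of these, 11 had a value above 0 and 4 below, with a median of 0.07 on the log2 scale. Over all 6978 shared regions annotated as promoter, 57.2% were above 0 and the median was 0.03. The lowest p was that of Tll2, which encodes a tolloid-like protease, where the density was 2.55 and 2.79 under vehicle and 4.09 and 4.13 under activin (0.35 ± 0.12, SE; limma adjusted p = 0.470). Next was Bambi, a decoy receptor without kinase activity, at 2.72 and 2.82 against 3.85 and 4.70 (0.34 ± 0.14; limma adjusted p = 0.503). Id4, a target of BMP Smads, had a difference of 0.22 ± 0.13 (limma adjusted p = 0.624), Smad5 one of 0.11 (adjusted p = 0.821) and Smurf2, a ubiquitin ligase acting on Smads and receptors, one of 0.09 (adjusted p = 0.826).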

How the data were processed

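ATAC-seq was run on LβT2 cells (LbT2b in the sample titles), 50000 per reaction, in 2 vehicle and 2 activin libraries, grouped by the sample titles. The submitters' processing notes name Bowtie2, MACS2 and HOMER and the builds GRCm38 and mm10, without roles or versions. The authors deposited, for each library alone, a broad peak list with a whole-number score, a fold enrichment ratio, and the −log10 of a p-value and of a q-value, and an annotation of those peaks with a gene name and a distance to a start site. Per the file headers, a quality report of ataqv 1.3.1 gives high-quality autosomal reads per peak, without duplicates, as numbers rather than a count table. The deposited score was not used further, and fold and −log10 q describe peaks within a list.

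Peaks of the 4 lists were merged into regions on an overlap of at least 1 bp. Density was log2 of (reads + 1) per kb of each library's called interval, centred on each library's median, and was tested over all shared regions with limma 3.58.1 in R 4.3.3 (trend, no block, Benjamini-Hochberg adjustment at 0.05). The added read pulls log2 changes toward 0 where reads are few. Shared regions of low density had negative median changes on that scale, such as −0.58 in the density group with a mean of −4.15. On simulated data the limma step was tested first. Single values per library were compared by exact permutation. The labels do not say whether a shared replicate number pairs libraries, and the block is covered with the other settings. Alternatives were the pseudocount, length division, scaling, common part, read minimum, −log10 q minimum, equal list lengths, distance limits and leaving out each library; the fit over all merged regions and the leave-one-out of the −log10 q order were chosen after seeing the data.

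The genes and lists were chosen with earlier results of these data known. Described were, for each gene, every promoter region, every region in all libraries and the 2 strongest others. For the pathway list these were the 5 start-site regions of lowest p and the genes without a peak of their name. Also described were the 3 promoters nearest to the tested member promoter with the highest mean −log10 q over the libraries, which was that of Bmpr1a. Weak start sites of Grem1, its exon 2 and regions named for neighbours were added after their values were seen. Promoter sequences and gene spans are from RefSeq, GRCm38.p6, and positions are the authors', counted from 1; sequences of distal regions and of the Bmp2, Bmp7 and Nog starts are not used here.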

Additional observations from a re-analysis of the deposited data

How the results depend on the processing

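The density test called 0 shared regions, and the count was 1 with a pseudocount of 10 reads, 39 without division by length, 605 scaled to all high-quality reads, 2 with a common part of at least 75%, and 0 to 9 with single libraries left out (9 without activin library 2). With the replicate block it was 4. Of the 605 regions called when scaled to all high-quality reads, 553 were higher and 52 lower under activin. Deviations of same-numbered libraries had a correlation of −0.025 over 13871 shared regions. With 2 libraries per treatment this cannot show whether same-numbered libraries were handled together. None of the 5 shared regions of the 10 genes, nor exon 1 of Bmpr2 or the last intron of Bmp7, passed the adjusted threshold in the settings in which it could be fitted. The cause of these differences was not tested. The median change of the shared BMP regions, −0.07, was 0.20 scaled to all high-quality reads, −0.83 with a common part of at least 75%, where 3 regions were left, and −0.25 to 0.027 with single libraries left out.

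Changes of sign were −0.17 at the Bmp7 promoter and −0.16 at the Bmpr1a promoter without division by length, −0.035 at the Bmpr1a promoter with a common part of at least 75%, and at Chrd 0.048 without division by length, 0.20 scaled to all high-quality reads, 0.037 over all merged regions and 0.11 without activin library 1. Without division by length exon 1 of Bmpr2 had −0.079 and the last intron of Bmp7 0.0015, and the latter had 0.060 scaled to all high-quality reads. The difference in peak numbers, −16, was 2.5 at a −log10 q of at least 5 and −28 to −4 with single libraries left out. The difference in genes with a promoter peak of their name, 0, was −0.5 with peaks within 1 kb of the start and −0.5 to 0.5 with single libraries left out. Activin-only regions numbered 2 in place of 1 at a −log10 q of at least 5, and 2 to 9 with single libraries left out (9 without activin library 2), which loosens the rule. Vehicle-only regions numbered 6, then 0 at a −log10 q of at least 2, 1 at 5, 3 with equal numbers of peaks, and 8 to 30 with single libraries left out (30 without vehicle library 1). Few reads limit some regions, such as that at −71.8 kb of Bmpr1b with 12 to 20, and absence of a peak gives no read number.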
